A study of Mus musculus with 12 samples.

Results

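Gluconeogenesis and fructose metabolism were followed through 7 genes taken by their symbols, Pck1, Pck2, G6pc, Fbp1, Pcx, Khk and Sord. On GRCm38 (GENCODE vM21) Pck1 lies at chr2:173153048-173159273, Pck2 at chr14:55540266-55551242, G6pc at chr11:101367561-101377903, Fbp1 at chr13:62864753-62888282, Pcx at chr19:4510472-4621752, Khk at chr5:30921431-30931248 and Sord at chr2:122234749-122265340, all as protein-coding genes. All 7 were present among the 23183 gene symbols listed in every library, and all 7 were among the 13243 genes that passed the filter on low values. Kidney cortex RNA was sequenced from 12 libraries, in 4 groups of 3. Acot12+/+ and Acot12-/- mice each gave obstructed kidneys (UUO) and the opposite, contralateral kidneys (CL), all collected on day 7 after unilateral ureteral obstruction. The mice were males of the strain given as C57BL/6 in the labels and C57BL/6N in the methods, 6 to 7 weeks old at surgery. The Acot12-/- mice lacked Acot12, an acyl-CoA thioesterase, in every tissue, through the germline transmission of 1 mutation made with an RNA-guided nuclease, so the deletion was not limited to the tubule. The CL kidney came from an animal that had also been operated on, and no kidney of an unoperated animal was among the libraries.

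The proximal tubule of the kidney cortex makes glucose, mainly from lactate, glutamine and glycerol, and returns it to the blood. Pyruvate carboxylase (Pcx) forms oxaloacetate in mitochondria, the phosphoenolpyruvate carboxykinases convert it to phosphoenolpyruvate in the cytosol (Pck1) or in mitochondria (Pck2), and fructose-1,6-bisphosphatase (Fbp1) and glucose-6-phosphatase (G6pc) carry out the last irreversible steps. The same cells take up fructose, which ketohexokinase (Khk) phosphorylates, and sorbitol dehydrogenase (Sord) makes fructose from sorbitol in the polyol pathway.

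The windows before the start sites of Pck1, G6pc and Pck2 are shown because Pck1 and G6pc had lower levels and Pck2 a higher level in UUO kidneys. They come from RefSeq on GRCm38.p6, plus strand, and end before the first base of the GENCODE gene. The Pck1 window is chr2:173152823-173153047, the G6pc window is chr11:101367466-101367560 and the Pck2 window is chr14:55540016-55540265. Capitals mark matches, on either strand, to the core of the cAMP response element (ACGTCA), the core of the element bound by ATF4 with C/EBP factors (TGATGNAA) and the CCAAT box (CCAAT).
Pck1: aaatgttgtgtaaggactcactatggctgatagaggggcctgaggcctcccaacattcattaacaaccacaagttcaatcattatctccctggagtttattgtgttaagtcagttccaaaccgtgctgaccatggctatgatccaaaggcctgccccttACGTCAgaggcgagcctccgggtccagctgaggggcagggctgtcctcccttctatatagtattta
G6pc: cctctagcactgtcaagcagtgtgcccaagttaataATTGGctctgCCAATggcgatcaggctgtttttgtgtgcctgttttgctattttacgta
Pck2: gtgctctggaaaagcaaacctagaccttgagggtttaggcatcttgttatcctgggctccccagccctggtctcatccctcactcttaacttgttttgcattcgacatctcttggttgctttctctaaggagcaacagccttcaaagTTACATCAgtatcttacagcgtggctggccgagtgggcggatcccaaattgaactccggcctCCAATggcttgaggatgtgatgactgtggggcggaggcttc
The search covered the 250 bases before each RefSeq start, and all 7 genes had a window. The motifs were chosen after the sequences and the expression values had been seen. ACGTCA was found in 6.5% of 32851 windows and, among the 7 genes, in Pck1. TGATGNAA was found in 3.5% of windows and in Pck2 and G6pc, the G6pc match lying downstream of the stretch printed. CAAAGNNCA, a form of the HNF4 element, was found in 5.5% of windows and in G6pc and Khk, also outside the stretches printed. CCAAT was found in 33.8% of windows and in Pck2, G6pc, Fbp1 and Pcx. A match is a description of these letters and shows no binding.

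Values are FPKM, fragment counts divided by transcript length and library size. The depth read from the steps of low FPKM was 12400000 to 16300000 fragments in CL libraries and 18500000 to 23000000 in UUO libraries. Acot12 was 52.7 to 78.1 FPKM in Acot12+/+ CL and 6.8 to 9.14 in Acot12-/- CL, without overlap (log2 fold change -2.88, limma adjusted p = 0.000969). Proximal tubule identity was checked on 12 markers, of which 11 were tested: all 11 were lower in UUO in both genotypes, 10 of them called in Acot12+/+ and 11 in Acot12-/-. The kidneys of Acot12-/- mouse 2 stood apart. On the second principal component the CL kidney of that mouse was at -52.3, against 22.2 and 33 for the other Acot12-/- CL kidneys. Its UUO kidney was the lowest of the 3 Acot12-/- UUO kidneys for 6 of the 7 genes. Results that rest on this mouse are given with and without it.

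UUO against CL asked how obstruction altered these genes. In both genotypes 6 of the 7 genes fell and Pck2 rose, with no overlap between UUO and CL for any of them. Of all genes tested, 47.5% were called in Acot12+/+ and 53.7% in Acot12-/-, and 71.3% and 55.4% had groups that did not overlap (35.8% lower and 35.5% higher in Acot12+/+, 27.6% and 27.8% in Acot12-/-). The share called lower was 23.9% and 27.2%, and the share called higher 23.6% and 26.6%. Over the 7 genes, the median log2 fold change came to -2.37 in Acot12+/+ mice and -2.64 in Acot12-/- mice, against 0.01 and -0.01 over all genes tested. Of the genes called, 50.3% were lower in Acot12+/+ and 50.5% in Acot12-/-. With libraries scaled to equal total FPKM, which moved the median of all genes by 0.61 and 0.46 on the log2 scale, those shares were 12.4% and 20.3%, and the directions and calls of the 7 genes held.

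**Figure D1:**
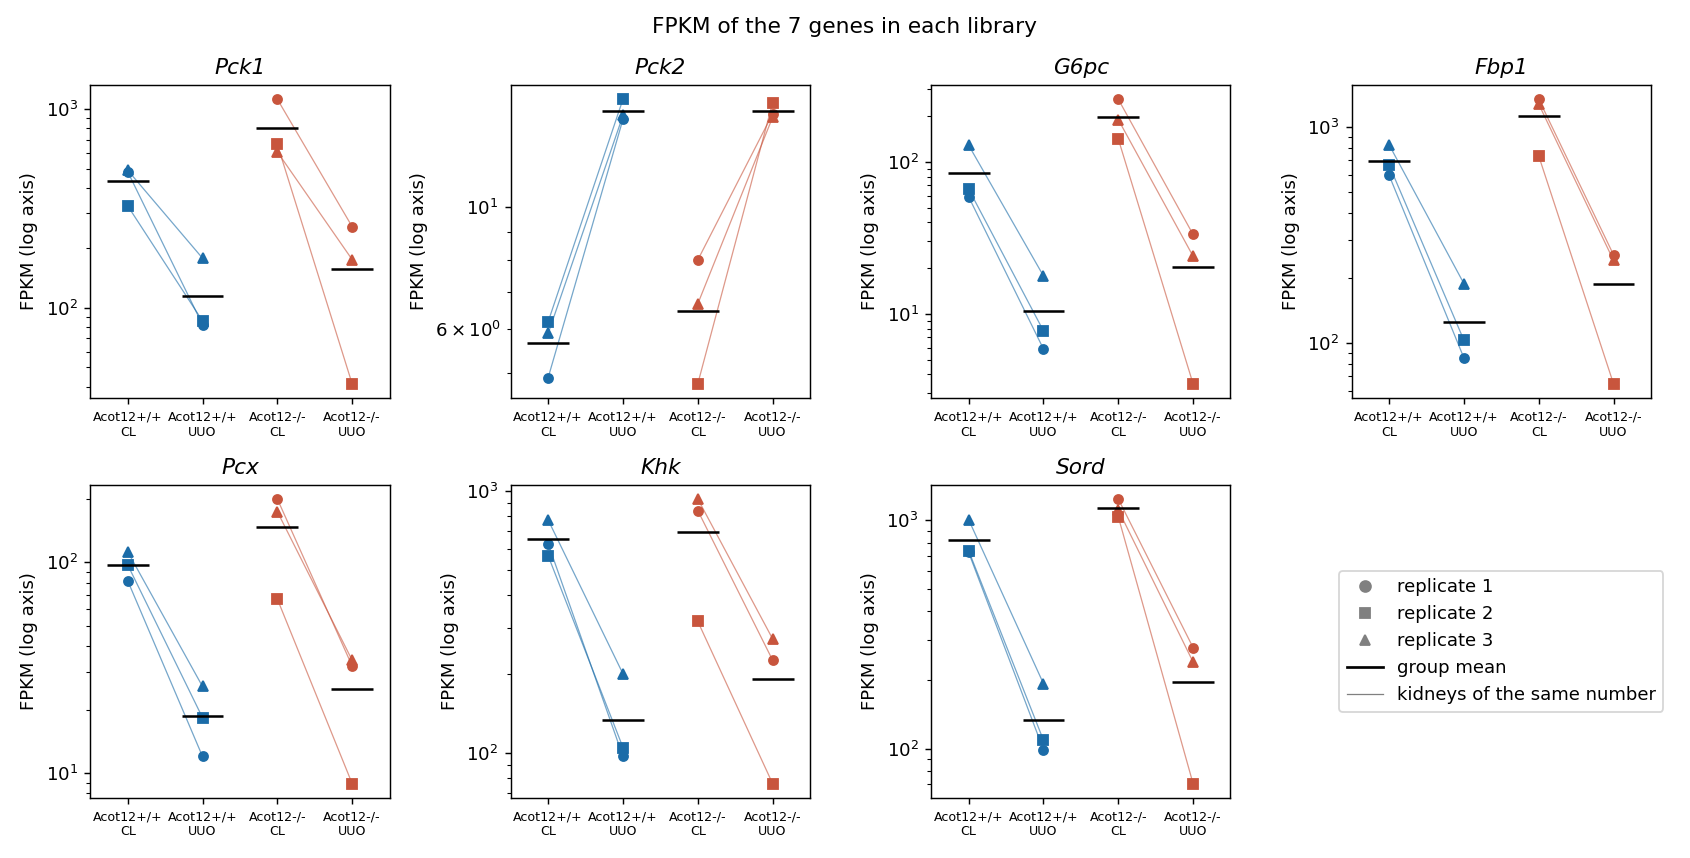
FPKM (log axis) of each of the 7 genes in the 12 libraries; blue points are Acot12+/+, red points Acot12-/-, the shape gives the replicate number, thin lines join kidneys with the same number and black bars are group means (n = 3). Each line runs down from CL to UUO for 6 genes and up for Pck2, and the UUO kidney of Acot12-/- replicate 2 is the lowest point for those 6 genes.

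Among the enzymes that commit carbon to glucose, Pcx supplies oxaloacetate. It was 81.8, 97.3 and 112 FPKM in CL kidneys of Acot12+/+ mice, and 12, 18.3 and 25.7 in the UUO kidneys with the same numbers. Acot12-/- mice had 200.1, 67 and 174 FPKM in their CL kidneys, as against 32.2, 8.9 and 34.3 in UUO. Every CL kidney was above every UUO kidney, although the CL kidney of Acot12-/- mouse 2 was well below the others. Expressed on the log2 scale, Pcx changed by -2.37 ± 0.5 (SE) in Acot12+/+ (limma adjusted p = 0.00218) and -2.56 ± 0.5 in Acot12-/- (adjusted p = 0.000981).

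Pck1, the cytosolic carboxykinase, was 484, 326 and 493 FPKM in CL kidneys of Acot12+/+ mice, and 82.1, 85.7 and 178 in UUO. Acot12-/- CL kidneys had 1124, 666 and 610 FPKM, and the UUO kidneys had 256, 41.3 and 175. All UUO kidneys were below all CL kidneys of the same genotype, and the mean UUO level was 0.265 of the CL level in Acot12+/+ and 0.197 in Acot12-/-. Pck1 changed by -1.98 ± 0.55 on the log2 scale (SE; limma adjusted p = 0.0115) and -2.64 ± 0.55 (adjusted p = 0.00163). With both kidneys of Acot12-/- mouse 2 left out, a choice made after that mouse was seen to stand apart, the Acot12-/- value was -1.96 ± 0.41.

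Pck2, the mitochondrial carboxykinase, moved the other way. It was 4.9, 6.19 and 5.89 FPKM in CL kidneys of Acot12+/+ mice, and 14.4, 15.7 and 14.6 in UUO. Acot12-/- CL kidneys had 8.01, 4.78 and 6.67 FPKM, against 14.7, 15.4 and 14.5 after UUO. The 6 UUO kidneys lay within a narrow band, above all 6 CL kidneys, and the UUO kidney of Acot12-/- mouse 2 did not stand apart for this gene. Pck2 rose by a log2 fold change of 1.26 ± 0.16 (SE; limma adjusted p = 8.27e-05) in Acot12+/+ and 1.11 ± 0.16 (adjusted p = 0.00012) in Acot12-/-. An exon of Pck2 overlaps an exon of Gm10876 on the opposite strand, and whether the counting used strand is not given in the sources used here, so their reads cannot be told apart.

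The opposite movement of the 2 carboxykinases changed their ratio within each library. Pck1 was 52.6 to 98.8 times the level of Pck2 in Acot12+/+ CL kidneys and 5.47 to 12.1 times in UUO kidneys. In Acot12-/- the ratio was 91.5 to 140 in CL and 2.68 to 17.4 in UUO. Pck1 stayed the more abundant in all 12 libraries.

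Fbp1, which removes a phosphate from fructose-1,6-bisphosphate, was 598, 666 and 827 FPKM in CL kidneys of Acot12+/+ mice, and 85.2, 103 and 188 in UUO. The CL kidneys of Acot12-/- mice had 1346, 735 and 1277 FPKM and their UUO kidneys 256, 64.6 and 241. The groups did not overlap in either genotype. The log2 fold change was -2.54 ± 0.47 (SE, limma adjusted p = 0.00102) in Acot12+/+ and -2.76 ± 0.47 (adjusted p = 0.000417) in Acot12-/-. Without both kidneys of mouse 2 the Acot12-/- value was -2.4 ± 0.31.

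G6pc, the catalytic subunit that releases free glucose, had the largest fall of the 7 in both genotypes. It was 58.9, 66.2 and 129 FPKM in CL kidneys of Acot12+/+ mice, and 5.87, 7.73 and 17.8 in UUO. Levels in Acot12-/- mice were 259, 142 and 190.0 FPKM on the CL side and 33.3, 3.46 and 24 on the UUO side. The UUO kidneys kept 9.97 to 13.8% of the level of the CL kidney with the same number in Acot12+/+. In Acot12-/- they kept 2.44 to 12.9%, the lowest being number 2. The log2 fold change was -2.95 ± 0.64 (SE; limma adjusted p = 0.00273) and -3.62 ± 0.64 (adjusted p = 0.000534), and -2.93 ± 0.47 in Acot12-/- without mouse 2. The lowest value, 3.46 FPKM, rests on about 140 fragments.

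G6pc3, the widely expressed glucose-6-phosphatase subunit, was 24.7 ± 2.38 FPKM (SD, n = 3) in Acot12+/+ CL and 36.1 ± 1.47 in UUO, with a log2 fold change of 0.53 that did not pass the test (limma adjusted p = 0.138). It was 31.1 ± 13.6 and 32.9 ± 4.48 in Acot12-/- (adjusted p = 0.611). G6pc3 was 0.213 to 0.4 of the G6pc level in Acot12+/+ CL kidneys and 2.11 to 6.15 times it in UUO kidneys. In Acot12-/- the ratio was 0.109 to 0.202 in CL and 1.09 to 8.03 in UUO. The order of the 2 subunits was therefore reversed in all 6 UUO kidneys.

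**Figure D2:**
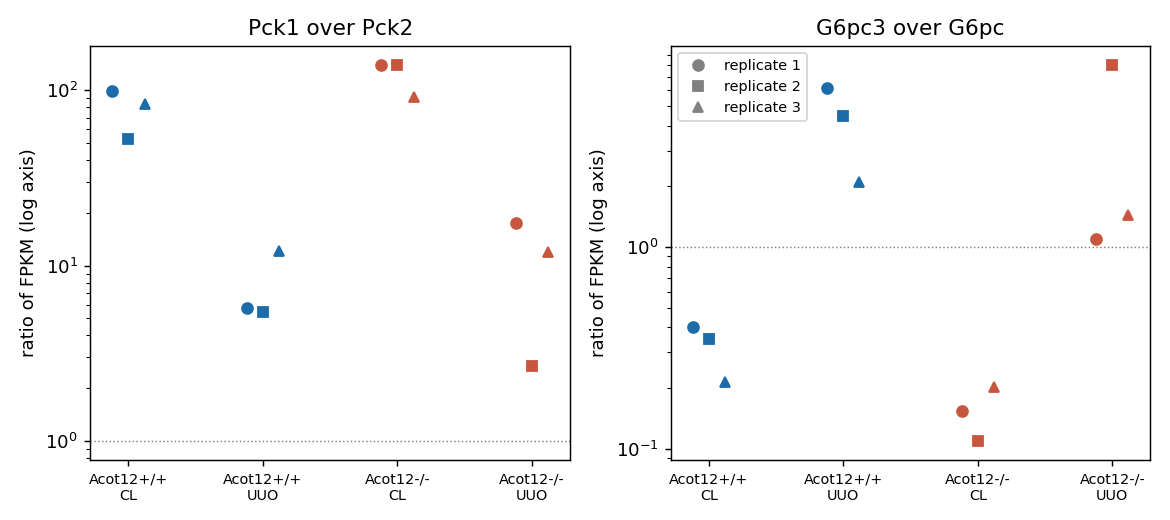
Ratio of FPKM (log axis) of Pck1 over Pck2 (left) and of G6pc3 over G6pc (right) in each library, by group; the shape gives the replicate number and the dotted line is a ratio of 1. Pck1 stays above Pck2 in all 12 libraries, whereas G6pc3 is below G6pc in the 6 CL kidneys and above it in the 6 UUO kidneys.

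Of the fructose genes, Khk was 628, 565 and 773 FPKM in CL kidneys of Acot12+/+ mice, and 96.8, 105 and 200.1 in UUO. Acot12-/- CL kidneys had 841, 317 and 931 FPKM, and 226, 76.3 and 272 remained in UUO kidneys. The CL kidney of Acot12-/- mouse 2 was the lowest CL kidney, yet still above every UUO kidney. The log2 fold change was -2.35 ± 0.5 (SE; limma adjusted p = 0.00226) in Acot12+/+ and -1.9 ± 0.5 (adjusted p = 0.0065) in Acot12-/-. The values are per symbol, so the 2 forms of ketohexokinase made by alternative splicing were not separated.

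Sord was 724, 737 and 1007 FPKM in CL kidneys of Acot12+/+ mice, and 99.4, 109 and 193 in UUO. Acot12-/- CL kidneys had 1241, 1038 and 1113 FPKM, their UUO counterparts 278, 70.6 and 240.2. Again no UUO kidney reached a CL kidney. The log2 fold change was -2.66 ± 0.43 (SE, limma adjusted p = 0.000387) in Acot12+/+ and -2.74 ± 0.43 (adjusted p = 0.000218) in Acot12-/-. Without both kidneys of mouse 2 the Acot12-/- value was -2.18 ± 0.29.

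**Figure D3:**
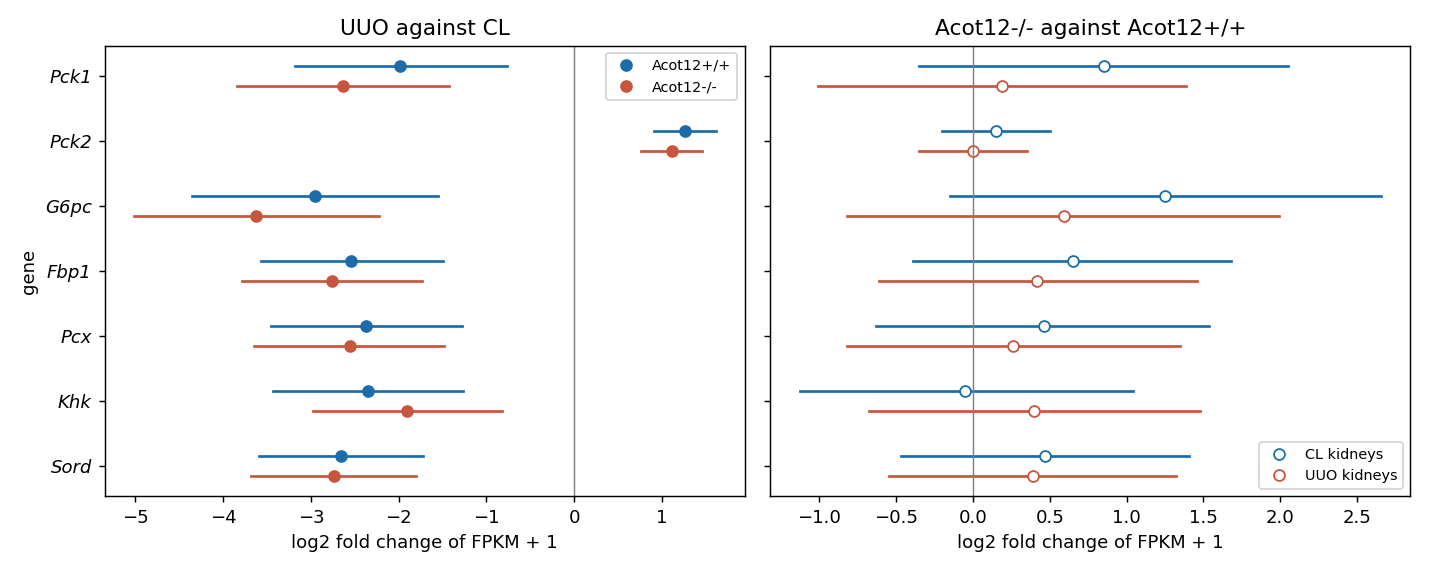
Log2 fold change of FPKM + 1 with its 95% interval for the 7 genes; filled points passed the test (limma adjusted p under 0.05), left for UUO against CL and right for Acot12-/- against Acot12+/+. On the left 6 genes lie below 0 and Pck2 above it in both genotypes, and on the right no gene passed.

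The falling genes moved with markers of the proximal tubule, and in whole cortex fewer cells of a type and less RNA per cell cannot be told apart. The markers' mean log2(FPKM + 1) left out Hnf4a, which is also among the regulators below. Its 11 markers are thus not the same as the 11 tested, which lack Kap. The mean was 7.41 in Acot12+/+ CL and 6.05 in UUO, and 8.51 and 6.25 in Acot12-/-. That mean includes Kap, an androgen-dependent proximal tubule gene listed at 0 in 3 CL libraries and at 5150 to 190000 FPKM in the others. Leaving out Kap, a choice made after its values were seen, gave 7.56 and 5.28 in Acot12+/+ and 8.24 and 5.47 in Acot12-/-. The sign of the Pck1 difference turned with this choice: relative to the mean of 11 markers, UUO minus CL was -0.62 in Acot12+/+ and -0.37 in Acot12-/-, and without Kap it was 0.31 and 0.14, with groups that overlapped throughout. G6pc was lower relative to the markers with either mean, by -1.6 and -0.67 in Acot12+/+ and by -1.36 and -0.85 in Acot12-/-, with no overlap between UUO and CL. Single markers fell unequally. In Acot12+/+ the mean of Slc7a13 went from 631 to 38.6 FPKM, Slc22a8 from 72 to 8.22 and Slc5a2 from 41.6 to 20.8, beside 84.7 to 10.5 for G6pc. Pck2 itself rose while the mean of the markers fell, so a higher value relative to them followed from those changes. It was higher by 2.62 and 3.55 in Acot12+/+ and 3.37 and 3.88 in Acot12-/-, also with no overlap. Fbp1, Pcx, Khk and Sord differed by -0.99 to -1.3 with Kap and by -0.06 to -0.37 without it in Acot12+/+. In Acot12-/- they differed by -0.5 to 0.36 with Kap and by 0.01 to 0.87 without it, so for Fbp1, Pcx and Sord the sign turned there too. These are differences of log2 values with no test. The summed FPKM of 6 injured tubule markers was 18.1 to 66.8 in Acot12+/+ CL and 1320 to 1350 in UUO, and that of 6 macrophage markers 81.9 to 104 and 431 to 520. All 6 injured tubule markers were called higher in both genotypes, and 5 macrophage markers in Acot12+/+ and 6 in Acot12-/-. Of these, Krt20 (at most 0.476 FPKM in CL) and Itgam (at most 0.87) passed the filter only through UUO libraries. The part of these changes in cell makeup in the results above was not tested.

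The other genes of gluconeogenesis mostly fell. Of 20 tested, 15 were called lower and 1 higher in Acot12+/+, and 15 lower and none higher in Acot12-/-, with median log2 fold changes of -1.17 and -1.36. The share called lower was 75% in each genotype, against 23.9% and 27.2% of all genes tested. Gyk, the glycerol kinase, fell by 2.59 and 2.72 on the log2 scale (limma adjusted p = 0.000101 and 4.35e-05). Slc37a4, which carries glucose-6-phosphate to G6pc, fell by 2.15 and 2.22. Mdh1, the cytosolic malate dehydrogenase, fell by 2.4 in Acot12+/+, and in Acot12-/- it fell from 1070 ± 58.7 to 271 ± 86.9 FPKM. Fbp2, the muscle-type bisphosphatase, rose from 10.1 ± 0.559 to 16.5 ± 3.62 FPKM in Acot12+/+ (adjusted p = 0.0137), a call lost in 2 of 22 alternative fits. It was 17.3 ± 0.867 and 17.9 ± 4.01 in Acot12-/- (adjusted p = 0.907).

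Of 13 other genes of fructose and polyol metabolism, 8 were called lower and 1 higher in Acot12+/+ and 10 lower and 2 higher in Acot12-/-. The shares called lower were 61.5% and 76.9%, against 23.9% and 27.2% of all genes tested. Slc2a5, the fructose carrier, fell by 2.23 and 2.45 on the log2 scale, and Slc2a2, a basolateral carrier of glucose and fructose, by 1.69 and 2.44. Dcxr, which reduces xylulose, fell by 2.2 in Acot12+/+, and in Acot12-/- it fell from 227 ± 116 to 59.6 ± 29.8 FPKM. Tkfc, the triokinase, fell by 1.17 in Acot12-/- (limma adjusted p = 0.00729) and had -0.8 in Acot12+/+ (adjusted p = 0.0517). Akr1b3, the aldose reductase that feeds Sord, did not pass in either genotype (0.27, adjusted p = 0.528 and -0.73, adjusted p = 0.0796). Its relative Akr1b8 rose from 4.05 ± 1.87 to 42.3 ± 3.16 FPKM in Acot12+/+ and from 2.78 ± 0.676 to 41.8 ± 10.4 in Acot12-/-. Akr1b7 rose by 2.41 in Acot12-/- with a wide spread, 4.8 to 26.5 FPKM in UUO. The Akr1b genes are close in sequence, so reads may have been divided between them.

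A list of glycolytic enzymes and their regulators had 18 genes tested, of which 3 were called lower and 5 higher in Acot12+/+, and 4 and 7 in Acot12-/-, with medians of 0.11 and 0.33. The shares called, 44.4% and 61.1%, were near the 47.5% and 53.7% of all genes tested. Apart from 4 pyruvate dehydrogenase kinases, which act on the entry of pyruvate into mitochondrial oxidation, 1 of 14 was called lower and 4 higher in Acot12+/+, and 1 and 6 in Acot12-/-. The gene called lower was Pfkm, a phosphofructokinase named after its values were seen (-0.87 and -1.07). Hk2, an inducible hexokinase, rose from 0.391 ± 0.15 to 3.22 ± 0.392 FPKM in Acot12+/+ and from 0.164 ± 0.121 to 4.96 ± 2.61 in Acot12-/-. Hk3 rose by 1.06 in Acot12+/+ (0.153 to 1.41 FPKM) and 1.05 in Acot12-/- (0.124 to 1.32 FPKM). In CL libraries Hk2 was at most 0.481 FPKM, Hk3 0.323 and Pfkfb1, called higher in Acot12-/-, 0.897. These genes passed the filter of 1 FPKM only through UUO libraries, so they could enter the counts only as genes higher there. Pklr, the liver and kidney pyruvate kinase, rose by 1.62 in Acot12+/+ (limma adjusted p = 4.18e-05). In Acot12-/- Pklr rose by 0.5 (adjusted p = 0.0359), a call lost in 7 of 22 alternative fits. Pfkp, another phosphofructokinase, rose by 0.51 and 0.49, calls lost in 3 and 4 of 22 alternative fits. The pyruvate dehydrogenase kinase Pdk3 fell by 1.43 and 1.42, and Pdk1 by 0.88 in each genotype, calls of Pdk1 being lost in 2 fits each. Pdk2 fell by 1.17 in Acot12-/-, a call lost in 4 of 22, and was not called in Acot12+/+. Pdk4 moved the other way, rising by 1.17 and 0.89. Hk1 (0.18 and 0.35) and Pkm (-0.19 and 0.45) did not pass.

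Of 22 regulators, 9 were called lower and 3 higher in Acot12+/+ and 7 and 3 in Acot12-/-. The shares called, 54.5% and 45.5%, were near those of all genes tested. Klf15, a factor that induces gluconeogenic enzymes, fell by 1.91 and 2.09 on the log2 scale, Ppargc1a, a coactivator, by 1.36 and 1.22, and Hnf4a, a nuclear receptor of the proximal tubule, by 1.17 and 1.6. Foxo1, a target of insulin signalling, fell by 0.63 and 0.56, but was at 0.05 in Acot12+/+ when libraries were scaled to equal total FPKM. Sik1, a kinase that restrains cAMP-driven transcription, rose by 1.1 and 0.68, and Cebpb by 1.2 and 1.61, the Acot12+/+ call of Cebpb being lost in 6 of 22 alternative fits. Atf4 (0.32 and 0.43) did not pass, with limma adjusted p of 0.195 and 0.0864.

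**Figure D4:**
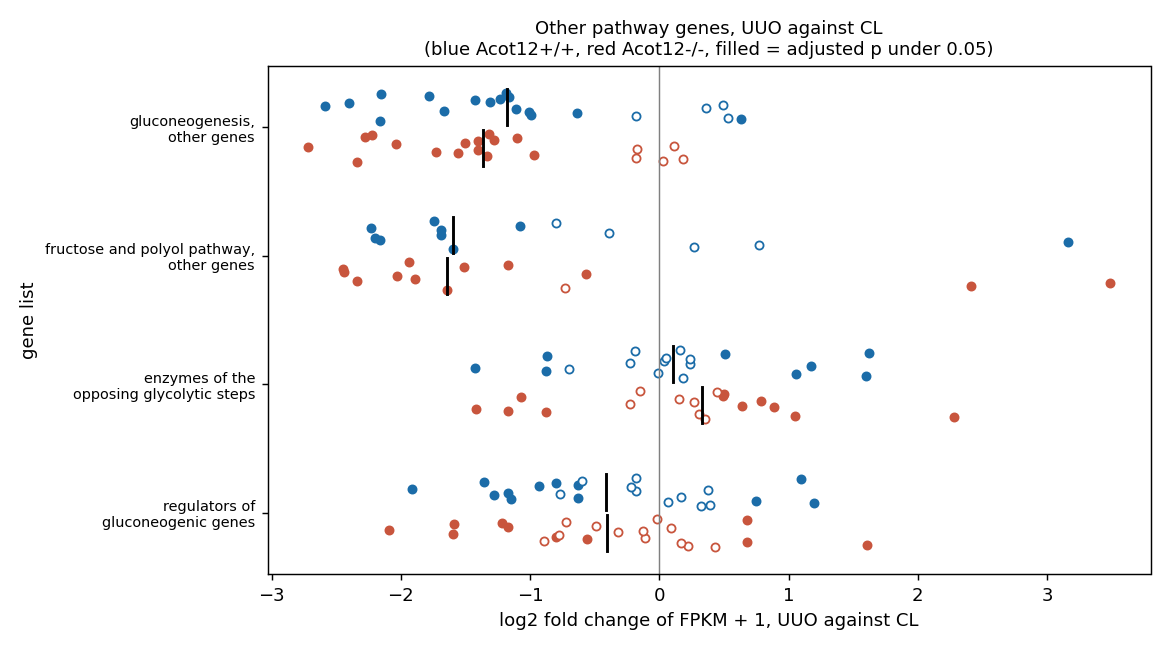
Log2 fold change of FPKM + 1, UUO against CL, of each tested gene in 4 lists; blue is Acot12+/+, red Acot12-/-, filled points passed the test and black bars are list medians. The gluconeogenesis and fructose lists lie mostly below 0, with Akr1b8 at 3.16 and 3.49, and the glycolytic list, which includes pyruvate dehydrogenase kinases, lies on both sides.

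Acot12-/- against Acot12+/+ asked whether loss of Acot12 altered these genes in each kidney. In UUO kidneys none of the 7 was called by limma (background 0.0151%) and none had an unadjusted p under 0.05. Acot12 itself was 16 ± 5.67 FPKM (SD, n = 3) in Acot12+/+ UUO and 2.98 ± 1.06 in Acot12-/- UUO. Its log2 fold change there was -2.07 (limma adjusted p = 0.0459), a call lost in 17 of 22 alternative fits. The log2 fold changes ran from 0 for Pck2, with a 95% interval of -0.35 to 0.35, to 0.59 for G6pc, with an interval of -0.82 to 1.99, and for Pck1 the interval was -1.01 to 1.39. The groups overlapped for all 7 genes. These values rest on Acot12-/- mouse 2, whose UUO kidney was the lowest for 6 of the genes. Without both of its kidneys, a choice made after the libraries had been seen that leaves 2 Acot12-/- mice, the log2 fold changes were 1.49 for G6pc, 1.06 for Fbp1, 1.01 for Sord, 0.97 for Pck1, 0.96 for Khk and 0.86 for Pcx, and -0.02 for Pck2. Then 6 of the 7 had an unadjusted p under 0.05 and none was called (limma adjusted p of 0.384 to 0.968). The groups no longer overlapped for G6pc, Fbp1, Pcx, Khk and Sord, all higher in the 2 remaining Acot12-/- kidneys, a pattern seen in 16.8% of all genes tested.

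In CL kidneys none of the 7 was called either (background 4.48%), and none had an unadjusted p under 0.05. Pck1, G6pc and Sord were higher in every Acot12-/- CL kidney than in every Acot12+/+ CL kidney, a pattern seen in 8.6% of all genes tested, or 18.3% in either direction. For G6pc the mean was 197 ± 58.7 FPKM (SD, n = 3) against 84.7 ± 38.4, a log2 fold change of 1.25 with an interval of -0.15 to 2.66 (limma adjusted p = 0.36). For Pck1 it was 800 ± 282 against 434 ± 94 (0.85, interval -0.35 to 2.05, adjusted p = 0.493), and for Sord 1130 ± 103 against 823 ± 160 (0.47, interval -0.47 to 1.41, adjusted p = 0.658). Fbp1, Pcx, Khk and Pck2 overlapped, with Khk at -0.05. Proximal tubule markers were also higher in Acot12-/- CL kidneys: 10 of 11 tested had a positive log2 fold change, 3 with an unadjusted p under 0.05 and none called, and their median was 0.52 against 0.47 for the 7 genes. The mean log2(FPKM + 1) of the markers ranged from 6.62 to 8.44 in the Acot12+/+ kidneys and from 7.39 to 9.24 in the Acot12-/- kidneys, and without Kap from 7.29 to 7.87 and from 8.09 to 8.5, which do not overlap. Relative to the markers, Acot12-/- minus Acot12+/+ was 0.15 for G6pc, -0.25 for Pck1 and -0.63 for Sord, and without Kap 0.58, 0.17 and -0.21. With both kidneys of Acot12-/- mouse 2 left out, 3 of the 7 were called higher, G6pc (1.47, adjusted p = 0.0342), Fbp1 (0.92, adjusted p = 0.0414) and Pcx (0.95, adjusted p = 0.0257). Of all genes tested, 13.6% were called higher in that fit and 24.3% in either direction. All 7 genes were then higher in the 2 remaining Acot12-/- CL kidneys than in every Acot12+/+ CL kidney, as were 28.2% of all genes tested. With the CL kidney of that mouse alone left out none of the 7 was called.

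The 4 list genes Slc2a2, Pdk4, Pklr and Fbp2 were called higher in Acot12-/- CL kidneys, of 72 list genes tested (1.12% of all genes tested were called higher), and for each the groups did not overlap. Slc2a2 was 39.8, 46.7 and 58.9 FPKM in Acot12+/+ and 85.2, 144 and 75.3 in Acot12-/- (log2 fold change 1.01 ± 0.25, limma adjusted p = 0.0444). Pdk4, which restrains pyruvate oxidation, was 4.17, 3.48 and 4.84 against 11.1, 6.02 and 13.1 (1.05 ± 0.23, adjusted p = 0.0273). Pklr was 7.71, 8.34 and 10.2 against 18.8, 11.3 and 17.3 (0.76 ± 0.18, adjusted p = 0.0376), and Fbp2 was 9.97, 10.8 and 9.7 against 17.8, 16.3 and 17.7 (0.71 ± 0.18, adjusted p = 0.0481). In the same comparison 3 of 6 macrophage, 2 of 4 lymphocyte, 2 of 7 fibroblast and 4 of 5 endothelial markers were called lower (3.36% of all genes tested were). The part of these markers in the results was not tested. The calls were lost in 13 of 22 alternative fits for Slc2a2, 6 for Pdk4, 15 for Pklr and 13 for Fbp2.

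The interaction asked whether the response to UUO differed between genotypes. None of the 7 was called (background 0.106%) and none had an unadjusted p under 0.05. The estimates ran from -0.67 for G6pc, with a 95% interval of -2.65 to 1.32, to 0.45 for Khk, with an interval of -1.08 to 1.98. The intervals hold differences of more than 2-fold either way for G6pc, Khk, Pck1, Fbp1, Pcx and Sord, but not for Pck2 (-0.64 to 0.34). Without both kidneys of Acot12-/- mouse 2 the estimates were 0.02 for G6pc, 0.01 for Pck1, 0.14 for Fbp1 and 0.48 for Sord, each of the opposite sign to that with the mouse, and -0.09 for Pcx, 0.52 for Khk and -0.35 for Pck2, again with none called and none with an unadjusted p under 0.05.

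Across the 4 groups the mean FPKM was in the order Acot12-/- CL, Acot12+/+ CL, Acot12-/- UUO, Acot12+/+ UUO for the 6 falling genes. For Khk the order of the CL groups turned on the log2 scale (-0.05, against means of 696 and 655 FPKM). Neighbouring UUO groups overlapped for all 6, and the CL groups overlapped for Fbp1, Pcx and Khk. The genes most like each of the 7 were found by the root mean square difference of log2(FPKM + 1), each gene centred on its mean over 12 libraries. Sord and Fbp1 were nearest to each other (0.179). The nearest were Sgk2 (0.218) and Slc13a3 (0.295) for Pck1, Ces1d (0.315) and Slc22a8 (0.322) for G6pc, Ass1 (0.2) as the next for Fbp1, and Cmbl (0.201) as the next for Sord. They were Retsat (0.207) and Apom (0.218) for Pcx, Fam195a (0.177) and Isoc2a (0.187) for Khk, and Kdm4a (0.118) and Tmem43 (0.123) for Pck2.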

How the data were processed

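The authors extracted RNA from kidney cortex, made directional libraries and had the reads mapped and normalized by a service provider into the deposited FPKM, 1 value per gene symbol and library. No unit name accompanies the files, and FPKM was inferred because low values were whole multiples of a step inversely proportional to transcript length, and the same steps gave the depth. The submitters' processing notes name edgeR and mm10 without a role; the aligner is not given in the sources used here. FPKM are not counts, and counting error was not modelled apart from the spread between libraries.

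Genes with at least 1 FPKM in at least 3 libraries were tested, leaving out 28 listed at 0 beside at least 10 FPKM in the same group. limma 3.58.1 (R 4.3.3) was fitted to log2(FPKM + 1) over all 4 groups, with eBayes and a variance trend, two-sided, and p-values were Benjamini-Hochberg adjusted over 13243 genes; a gene was called at an adjusted p under 0.05. Fold changes on this scale understate changes of low genes. The fit was tested on simulated data with 13243 genes and 200 changed. Intervals are 95%. Nothing says whether libraries of a group came from separate animals beyond their numbers, so p-values measure the spread between libraries. Within a genotype, deviations of CL and UUO libraries with the same number correlated at 0.13, 0.36 and 0.33 in Acot12+/+ and 0.32, 0.19 and 0.32 in Acot12-/-. Those with different numbers ran from -0.36 to 0.14 and from -0.18 to -0.07. Libraries of different genotypes, which cannot share a mouse, reached 0.45. A number was read as 1 mouse and used as a block in an alternative, but these correlations do not settle that reading.

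The 7 genes and all lists were chosen with earlier results of these data known. Named genes were the 7, a set of listed pathway genes, in each list the 2 genes that rose most and the 2 that fell most among those called, list genes called between genotypes, and the 2 nearest genes of each of the 7; 2 genes under this rule are not reported here by name, but stay in the counts of their lists. Described as added after the values were seen are the fits without Acot12-/- mouse 2 and the proximal tubule mean and sum without Kap; the mean planned had 11 markers with Kap included. Alternatives were another pseudocount (0.1), no filter, 2 scalings, no variance trend, only the groups compared, the block, a 2-fold minimum and each library left out.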

Additional observations from a re-analysis of the deposited data

How the results depend on the processing

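All calls of the 7 genes in UUO against CL held in every alternative, the mouse block and each library left out included. For other genes in that comparison, the call of Hnf4a in Acot12+/+ and those of Sik1, Pdk4 and Tkfc in Acot12-/- were each lost in 1 of 22 alternative fits. The Foxo1 call was lost in 1 in Acot12+/+, apart from its turn with equal totals, and in 2 in Acot12-/-. Counts over all genes were less stable. With a 2-fold minimum, 2634 genes were called in Acot12+/+ and 3424 in Acot12-/- for UUO against CL. Between genotypes in UUO kidneys 2 genes were called, but 0 with a pseudocount of 0.1, with no filter, with only the groups compared, with genes listed at 0 kept and with the mouse (replicate) block, and 0 to 2 with a library left out. In CL kidneys 593 were called, against 333 with equal totals, 1 with only the groups compared, 252 with a 2-fold minimum, 3218 without both kidneys of Acot12-/- mouse 2 and 189 to 2923 with a library left out, the highest without the CL kidney of that mouse. Of the 7 genes, 3 were called in CL without that mouse. The interaction called 14 genes, 0 with no filter and with equal totals, 8 without the variance trend, 203 with the mouse block (pairing), 400 without mouse 2 and 0 to 916 with a library left out. The block changed no call of the 7 genes.

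Directions turned only among values that did not pass the test and for Foxo1 (0.05 with equal totals). In UUO kidneys Pck2 was 0.00 with median-ratio scaling, and with a library left out Pck1 ran from -0.34 to 0.97, Pck2 from -0.02 to 0.03 and Pcx from -0.06 to 0.86. In CL kidneys Khk was 0.45 without mouse 2 and -0.33 to 0.45 with a library left out. For the interaction, Pck1 was 0.01, G6pc 0.02, Fbp1 0.14 and Sord 0.48 without mouse 2; with a library left out Pck1 ran from -1.19 to 0.12, G6pc from -1.23 to 0.24, Fbp1 from -0.56 to 0.42, Pcx from -0.68 to 0.4, Khk from -0.04 to 1.01 and Sord from -0.45 to 0.54. Relative to proximal tubule markers, the sign for Pck1 depended on whether Kap, listed at 0 in 3 libraries, was in the mean. The cause of these changes was not tested.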
